A study of Mus musculus with 25 samples.

Results

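The genes described here are 32 genes of the synaptic vesicle and its release machinery, taken by symbol from 23990 genes in a table of prefrontal cortex RNA. All 32 were found. They were set out by role in 7 groups: the SNARE core, SNARE recycling, calcium sensing and clamping, proteins of the vesicle membrane, proteins on the vesicle surface, the active zone and endocytosis. The study sequenced total RNA of the prefrontal cortex of wild type C57BL/6 mice aged 10 weeks, 25 samples in 6 groups: for each sex, unstressed controls, mice put through social defeat (stress by an aggressor) on vehicle, and mice put through it on dihydrocaffeic acid with malvidin-glucoside (phenolic compounds found in plants) given before and throughout the defeat. The 5 libraries used here, replicates 1 to 5, are those of the wild type males given vehicle and put through social defeat. Column names of the table are letter and number codes found in no label. Only 1 letter reaches the number 5, and this is the only group with a replicate 5, so these columns were matched to it on the assumption that a letter is a group and a number a replicate. Another 20 columns could belong to more than 1 group by name and were not used, so no effect of stress, treatment or sex was measured. The values below give the level of each gene in the stressed male cortex and its spread between libraries. Nothing in the labels gives each library its own animal, so this spread may be partly technical.

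A presynaptic terminal stores transmitter in vesicles that are filled by transporters, held in clusters, brought to the active zone, primed and fused when calcium enters. Fusion is driven by SNARE proteins: synaptobrevin on the vesicle pairs with syntaxin and SNAP-25 on the plasma membrane, synaptotagmin senses calcium and complexin holds the complex ready. The membrane is then taken back by endocytosis and used again. In the cortex, synaptotagmin-2 and VAMP1 are known from fast-spiking, parvalbumin-containing interneurons, while synaptotagmin-1 and VAMP2 are the widespread forms.

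Library totals were 34565147 to 44265039 reads. Levels are given as CPM, counts scaled to a common library size as in the authors' values, and levels are compared between genes only as RPKM, which is CPM per kilobase of exon. Errors are SDs over the 5 libraries (n = 5). Markers fitted the labelled tissue: the cortical glutamatergic genes Camk2a, Tbr1 and Neurod6 were present in each library. Summed pan-neuronal markers ranged from 5096 CPM (replicate 1) to 5962 CPM (replicate 4), and summed oligodendrocyte markers from 2280 CPM (replicate 4) to 5031 CPM (replicate 3). No library was without markers of non-neuronal cells.

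Syt2 and Vamp1 had the widest ranges between libraries of the 32 genes, and the bases before their transcription starts are shown because both genes had the same order of libraries. The sequences are from RefSeq on GRCm38.p6, 5′ to 3′ on the strand of the gene. They are taken from the 250 bases before the start and stop where an annotated exon begins. Capitals mark matches on either strand to the motifs GGGCGG, known as the GC box, TATAAA, which stands here for the TATA box, TGACGTCA, the full cyclic AMP response element (CRE), or the CCAAT box, named by its letters. None of these motifs contains another, and touching matches would run together.
Syt2, first start, chr1:134646362-134646448, plus strand: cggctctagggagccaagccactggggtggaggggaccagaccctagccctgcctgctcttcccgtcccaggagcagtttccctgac
Syt2, second start, chr1:134709050-134709299, plus strand: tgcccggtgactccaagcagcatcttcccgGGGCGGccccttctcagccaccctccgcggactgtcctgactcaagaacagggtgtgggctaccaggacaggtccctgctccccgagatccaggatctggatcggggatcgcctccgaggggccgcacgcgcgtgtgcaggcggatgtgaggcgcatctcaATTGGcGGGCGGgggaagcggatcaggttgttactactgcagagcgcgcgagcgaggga
Vamp1, chr6:125215331-125215550, plus strand: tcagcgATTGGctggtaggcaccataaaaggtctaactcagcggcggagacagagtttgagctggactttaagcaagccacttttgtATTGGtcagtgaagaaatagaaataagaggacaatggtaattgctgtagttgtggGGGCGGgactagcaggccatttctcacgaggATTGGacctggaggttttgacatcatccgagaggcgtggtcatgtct

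The second Syt2 window and the Vamp1 window each hold both a GC box and a CCAAT box. The Vamp1 window has 3 CCAAT matches and 1 GC box at 48.6% GC. The second Syt2 window has 1 CCAAT match and 2 GC boxes at 66.4% GC. The 87 bases shown of the first Syt2 window hold none of the 4 motifs. They are the part of that window farthest from the start, and the rest of it is not shown. Windows of 250 bases were on file for 28 of the 32 genes, 39 windows in all. For the shares that follow these were searched whole, with no bases left out. A GC box was in 22 of these 39 windows (56.4%) and in 32.7% of all 32851 windows, a CCAAT box in 10 (25.6%) and in 33.8%, a TATA box in 2 (5.13%) and in 12.4%, and a full CRE in 2 (5.13%) and in 1.55%. The median GC content was 58.8% against 52.4% over all windows. These are matches of letters and say nothing about binding.

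Syt2, a fast calcium sensor of release (chromosome 1, 134646677 to 134762593, plus strand of GRCm38), was at 37.6, 39.2, 60.7, 75.9 and 26.0 CPM in replicates 1 to 5. Its level was highest in replicate 4, next in replicate 3 and lowest in replicate 5, a 2.92-fold range. Vamp1, a synaptobrevin of the vesicle membrane (chromosome 6, 125215551 to 125245964, plus strand), was at 105, 103, 138, 169.5 and 79.3 CPM, with the same library on top and the same at the bottom. Its range was 2.14-fold. Cplx1, a complexin (chromosome 5, 108518554 to 108550024, minus strand), followed the same order over a narrower 1.44-fold range, with 571, 628, 705, 751 and 521 CPM. The order had replicate 5 lowest, replicates 1 and 2 next in either order, then 3, and 4 highest. It was picked out after these values were seen. Among all 14524 genes of at least 1 CPM, 1.94% had this order, and among the 32 genes described here Cplx1, Vamp1 and Syt2 had it.

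The spread between libraries is given as the coefficient of variation (CV) after the part due to counting reads is taken out. It was 41.8% for Syt2 and 29.6% for Vamp1, at percentiles 99.1 and 95.9 of the genes of at least 1 CPM. The range of Syt2 was 2.34-fold without replicate 4 and 2.02-fold without replicate 5, and that of Vamp1 was 1.74-fold and 1.65-fold.

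Markers of parvalbumin interneurons were set beside these genes. Pvalb, the calcium buffer that names the cells, was at 42.1, 46.7, 64.4, 64.5 and 33.0 CPM in replicates 1 to 5, and so had the same order of libraries. The potassium channel genes of fast-spiking cells did not share it. Kcnc1 was at 202, 230.1, 226, 260.1 and 207 CPM and Kcnc2 at 133, 146, 151, 151 and 156 CPM. The other marker genes with the order were Gad1, which makes GABA, and the heavy and medium neurofilament genes Nefh and Nefm. Of the 6 inhibitory markers 2 had it, of the 12 pan-neuronal markers 2, and of the 6 excitatory markers none. Nefm was at 134, 159, 228, 289 and 118 CPM and Nefh at 57.1, 61.4, 72.3, 86.5 and 45.6 CPM.

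Divided by Pvalb, the range of Vamp1 was 1.23-fold, with ratios of 2.48, 2.20, 2.14, 2.63 and 2.41. The ratio of Vamp1 to Pvalb did not follow the order of the libraries. Divided by Pvalb, Syt2 had ratios of 0.891, 0.840, 0.942, 1.18 and 0.788, a 1.49-fold range, with replicate 4 still highest and replicate 5 still lowest. Divided by the summed pan-neuronal markers, the ranges stayed wider, at 2.81-fold for Syt2 and 2.06-fold for Vamp1. The ratios to Pvalb were chosen after the values were seen. Summed inhibitory markers had a 1.08-fold range, but their members differed: Sst was lowest in replicate 4, at 249 CPM against 316 to 369 CPM. Gad1 and Vip were highest in replicate 4, and Pvalb was nearly level there and in replicate 3. Summed excitatory markers were at 3517 to 4566 CPM, highest in replicate 4, of which Camk2a made up 2897 to 4010 CPM. Neurod2, another excitatory marker, was lowest in replicate 4, at 124 CPM. Other cell types differed as well: upper layer markers summed to 233, 192, 184, 382 and 247 CPM in replicates 1 to 5, with 4 of 4 highest in replicate 4, while the oligodendrocyte sum was lowest there, with 2280 CPM against 4212, 3500, 5031 and 2418 CPM in replicates 1, 2, 3 and 5. Replicate 4 was also the library with the highest sums of meningeal (28.2 CPM, and 6.86 to 12.7 CPM elsewhere), blood (168 CPM, with 91.1 CPM the lowest), endothelial (169 CPM, with 145 CPM the lowest) and fast-spiking markers (476 CPM, with 377 CPM the lowest). The endothelial members differed: Flt1 and Pecam1 were highest in replicate 4, Flt1 at 110 CPM, while Cldn5 was lowest there, at 36.5 CPM. Deep layer markers summed to 302 to 365 CPM, lowest in replicate 4, and microglia markers to 226 to 262 CPM, highest in replicate 1. Of the deep layer markers, Fezf2, Foxp2 and Tle4 were lowest in replicate 4. Bcl11b was lowest in replicate 1, and Etv1 was highest in replicate 4, at 56.4 CPM. The part of these cell type markers in the pattern of Syt2 and Vamp1 was not tested. In bulk tissue, fewer cells of a type and less RNA per cell cannot be told apart.

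**Figure D1:**
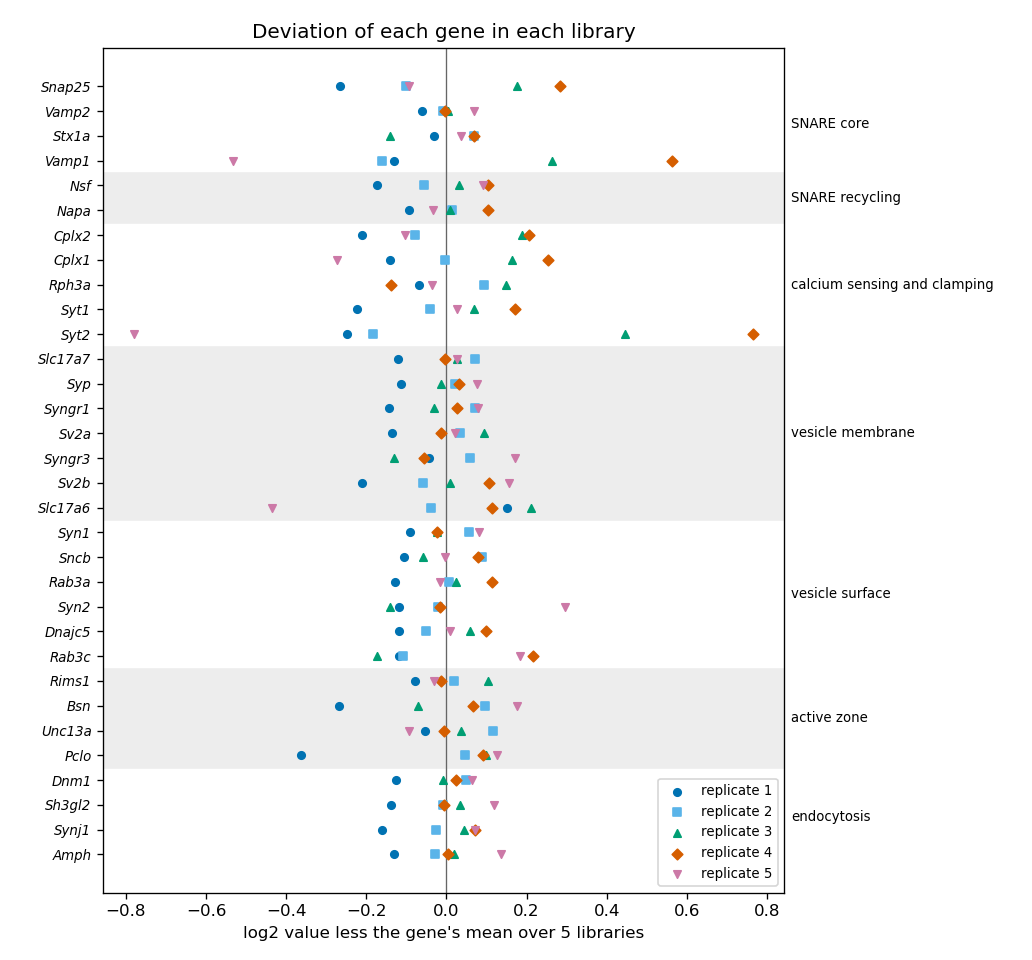
Deviation of each of the 32 genes from its own mean over the 5 libraries, on a log2 scale, by replicate and grouped by role. Syt2 and Vamp1 deviate most, highest in replicate 4 and lowest in replicate 5, and replicate 1 lies below the gene's mean for 31 of 32 genes.

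The SNARE core holds the proteins that pull the membranes together. Snap25, the plasma membrane SNARE that gives a pair of helices to the complex (chromosome 2, 136713453 to 136782428, plus strand), had the highest mean level of the 32 genes, at 384 ± 60.3 RPKM. Per kilobase it was above Vamp2 and Slc17a7 in replicates 3 and 4 and below both in the other libraries. It was at 2147, 2405, 2914, 3142 and 2416 CPM in replicates 1 to 5 and was the gene at rank 15 of the table by CPM. Replicates 3 and 4 were above the other libraries, and the range was 1.46-fold. Vamp2, the main synaptobrevin of the forebrain (chromosome 11, 69088490 to 69092384, plus strand), was at 368 ± 11.9 RPKM, within the spread of Snap25. It was at 1342, 1389.9, 1404, 1395 and 1469 CPM. Its CV of 3.22% was the smallest of the 32 genes, against 15.7% for Snap25, and was 1.97% without replicate 5. Stx1a, a syntaxin of the plasma membrane, was at 292, 313, 271, 313 and 306 CPM and at 112 ± 6.73 RPKM, and was lowest in replicate 3. The products of Snap25, Vamp2 and Stx1a enter the same complex, but their transcripts were highest in different libraries: replicate 4 for Snap25, replicate 5 for Vamp2, and replicates 2 and 4 at the same rounded value for Stx1a. Vamp1 was at 11.7 ± 3.46 RPKM.

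After fusion the SNARE complex is taken apart by the ATPase NSF and its adaptor alpha-SNAP, the product of Napa. Nsf was at 716, 776, 825, 868 and 860.5 CPM, lowest in replicate 1, and Napa at 200.5, 216, 215, 230.2 and 209 CPM, also lowest there. Their CVs were 7.83% (5.01% without replicate 1) and 4.96% (3.25% without replicate 4). Per kilobase, Nsf was at 96.9 ± 7.61 RPKM and Napa at 56.6 ± 2.87 RPKM, so the levels of the enzyme and of its adaptor did not overlap.

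Among the genes of calcium sensing and clamping, the group with the highest median CV (13.0%), 4 of 5 were highest in replicate 4. Syt1, the main calcium sensor of fast release (chromosome 10, 108497650 to 109010982, minus strand), was at 1303, 1477, 1594, 1712 and 1547 CPM. It had a 1.31-fold range, with replicate 1 lowest rather than replicate 5 as for Syt2. Cplx2, the second complexin, was at 1227, 1345, 1619, 1638 and 1322 CPM. Like Snap25 it was higher in replicates 3 and 4 than in the other libraries, which did not overlap them. Rph3a, the Rab3 effector rabphilin, was at 828, 925, 962, 789 and 847 CPM, highest in replicate 3 and lowest in replicate 4. It was the 1 gene of the 32 with its lowest level in replicate 4. The striatal markers, taken as a sign of tissue from below the cortex, also had their highest sum in replicate 3 (241 CPM, and 172 to 193 CPM elsewhere), and their part in this was not tested. Per kilobase, Cplx1 was at 290.2 ± 43.0, Cplx2 at 290.2 ± 37.8, Rph3a at 188 ± 15.4 and Syt1 at 183 ± 18.2 RPKM. Syt2 was far below them at 6.27 ± 2.62 RPKM.

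**Figure D2:**
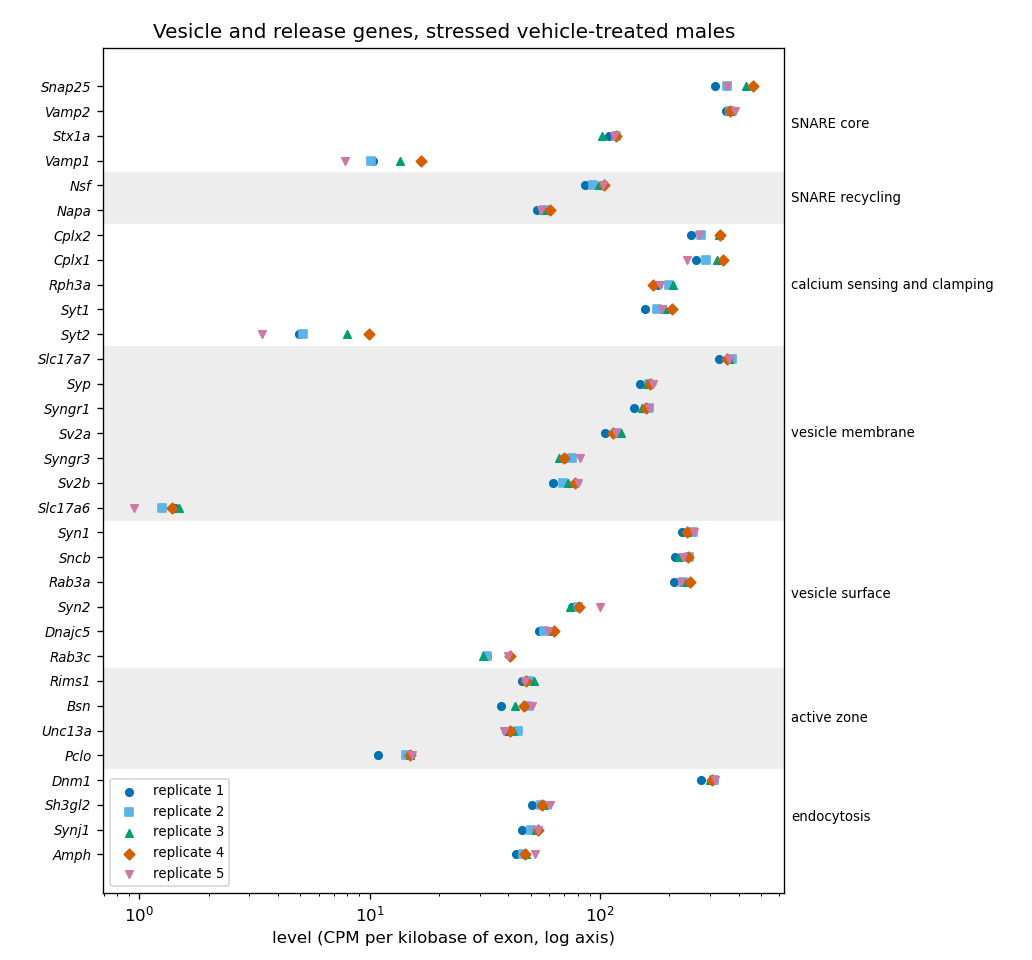
Level of each of the 32 genes in RPKM on a log10 axis, by role, with a point for each of the 5 libraries. Snap25, Vamp2 and Slc17a7 lie at the top, between 357 and 384 RPKM on average, and Slc17a6 lies at the bottom with 1.30 RPKM.

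The vesicle membrane proteins load transmitter or are integral proteins of the vesicle with other roles. Slc17a7 encodes VGLUT1, the glutamate transporter of cortical neurons, and was at 1769, 2019.6, 1961, 1920.3 and 1958 CPM, or 357 ± 17.5 RPKM. Replicate 1 was the lowest library, and the CV was 4.89%, or 2.06% without it. Slc17a6 encodes VGLUT2, typical of thalamic neurons, and was at 7.70, 6.75, 8.03, 7.51 and 5.12 CPM, or 1.30 ± 0.215 RPKM. It was the least abundant of the 32 genes and had a 1.57-fold range, with replicate 5 below the other libraries. The summed thalamic markers, which include Slc17a6, were also lowest there, at 59.0 CPM, and highest in replicate 4, at 90.5 CPM. Of this sum Rora made up 39.8 to 67.8 CPM, and the members differed. Slc17a6 and Tcf7l2 were lowest in replicate 5 and highest in replicate 3. Rora was lowest in replicate 2 and Prkcd in replicate 3, and both were highest in replicate 4. The tetraspan proteins synaptophysin and synaptogyrin differed little between libraries: Syp was at 777, 853, 834, 859 and 886 CPM (CV 4.82%), Syngr1 at 674, 782, 729.7, 758 and 786 CPM (CV 6.16%). Without replicate 1, the lowest for both, these CVs were 2.46% and 3.37%. Syngr3 was at 146, 157, 138, 145 and 169.8 CPM and, unlike those genes, lowest in replicate 3. The SV2 glycoproteins are the entry sites of botulinum toxin A. Sv2a, also the target of the antiepileptic levetiracetam, was at 486, 547, 569.5, 529 and 542 CPM, and Sv2b at 522, 580.5, 609, 651 and 674 CPM. Both were lowest in replicate 1, with CVs of 5.78% and 9.84%, and without it the CV of Sv2a was 3.05%.

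On the vesicle surface, synapsins tie vesicles into clusters and Rab3 proteins guide them to the active zone. Syn1 was at 751, 831, 788, 786 and 847 CPM, within a 1.13-fold range. Syn2 was at 528, 565, 520.3, 567 and 704 CPM: replicate 5 stood above the other libraries, which lay within 520.3 to 567 CPM, and without replicate 5 the CV was 4.40% in place of 12.8%. The Rab3 genes also differed from each other. Rab3a was at 464, 509, 515, 549 and 502 CPM (CV 5.97%, and 3.97% without replicate 1), while Rab3c was at 387, 389.5 and 373 CPM in replicates 1 to 3 and at 488 and 477 CPM in replicates 4 and 5 (CV 13.0%). Sncb, beta-synuclein, was at 455, 522, 471, 518 and 489 CPM. Dnajc5, the chaperone cysteine string protein that keeps SNAP-25 folded, was at 378, 397, 428, 440.3 and 414 CPM. Both were lowest in replicate 1 and had CVs of 5.82% and 5.94%.

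At the active zone, Rims1 and Unc13a (Munc13-1) prime vesicles and Bsn and Pclo are giant scaffolds. Rims1 was at 336, 360.0, 382, 352 and 348 CPM and Unc13a at 495, 557, 526, 511 and 481 CPM, with CVs of 4.68% and 5.66%. Without replicate 3, the highest for Rims1, its CV was 2.71%. The scaffolds had wider and similar ranges with replicate 1 lowest in both: Bsn was at 594, 764, 681, 748 and 807 CPM (1.36-fold, CV 11.6%) and Pclo at 244, 324, 336, 335 and 343 CPM (1.40-fold, CV 12.9%). Without replicate 1 the CV of Pclo was 2.11%, so its spread came almost wholly from that library, while that of Bsn was still 6.97%. Both genes have very long messages, with longest coding transcripts of 15938 and 20084 bases, the longest of the 32.

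Endocytosis genes had CVs from 5.11% to 6.63%, the lowest maximum of the 7 groups, with a median of 6.44%. Dnm1, the GTPase that cuts vesicles from the membrane, was at 1446, 1633, 1570.2, 1604 and 1650.2 CPM and at 301 ± 15.4 RPKM. Amph, amphiphysin, was at 195, 209, 217, 214 and 235 CPM. Sh3gl2, endophilin A1, which bends the membrane, was at 333, 364, 375, 365 and 397 CPM, and Synj1, the phosphatase that helps to uncoat the vesicle, at 369, 404, 425, 433 and 433 CPM. All 4 were lowest in replicate 1, and Dnm1, Amph and Sh3gl2 were highest in replicate 5. Without replicate 1 the CVs of Dnm1, Sh3gl2 and Synj1 were 2.13%, 4.06% and 3.07%. Dnm1 was far above the other 3 genes per kilobase, which were at 47.3 ± 3.18 (Amph), 56.0 ± 3.56 (Sh3gl2) and 51.0 ± 3.37 RPKM (Synj1).

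The libraries of 1 group were asked to differ by no more than counting error, with a chi-square test per gene (4 degrees of freedom, Benjamini-Hochberg over all genes tested, adjusted p below 0.05 called). All 32 genes had enough reads for the test and all 32 were called. Of all 19239 genes tested 74.4% were called, of those at or above the mean CPM of the lowest of the 32 genes 86.5%, and of those of at least 100 CPM 98.1%, so the count is close to that of other genes read as deeply. The largest adjusted p among the 32 was 8.5e-06, for Slc17a6, and without replicate 5 its adjusted p was 0.231.

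In size, the spread of these genes was like that of other abundant genes. The median CV was 6.59%, against 8.25% over all genes of at least 1 CPM. For the 30 genes of at least 100 CPM it was 6.44%, against 6.41% over all 2206 genes at that level. A CV above 10% was seen in 10 of 32 genes, and in 39.2% of all genes of at least 1 CPM. Among genes of at least 100 CPM it was seen in 8 of 30, and in 18.7% of all at that level. A range over 1.5-fold was seen in 3 of the 32 (Syt2, Vamp1 and Slc17a6) and in 21.7% of all genes of at least 1 CPM. The 32 genes together held 2.28% ± 0.107 of the reads. By CPM, which is not divided by gene length, 25 of them were among the 500 highest genes.

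**Figure D3:**
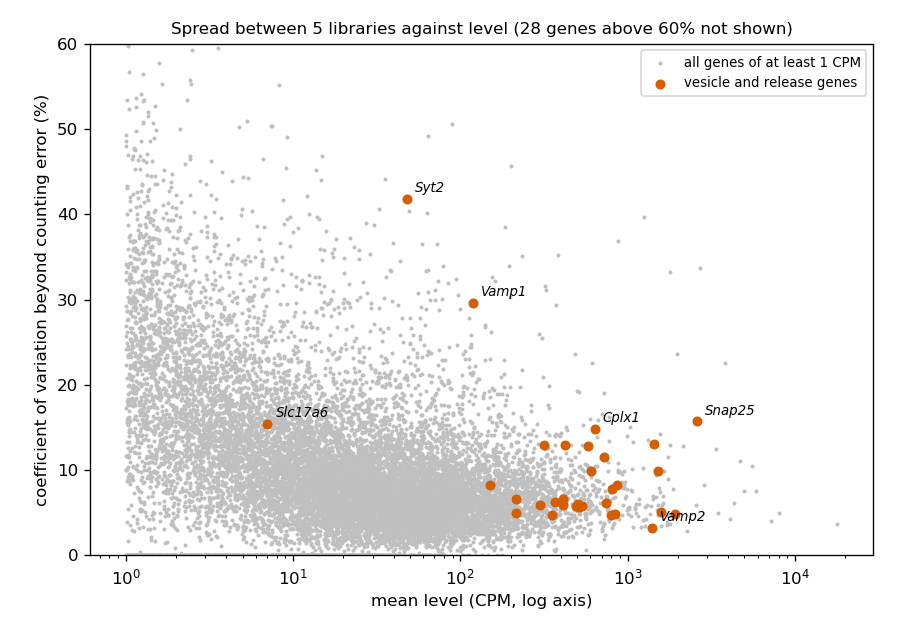
CV beyond counting error in percent against mean CPM on a log10 axis, for all genes of at least 1 CPM (grey) and the 32 genes (coloured). Most of the 32 lie within the band of genes of like level, with Syt2 (41.8%) and Vamp1 (29.6%) above it, and 28 genes above 60% are not shown.

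Replicate 1 was the library with the lowest levels of this machinery. It was the lowest library for 22 of 32 genes (68.8%), against 25.2% of all genes of at least 1 CPM, and 31 of the 32 were below their own mean there. The exception was Slc17a6, at 7.70 CPM. The median deviation of the 32 genes in replicates 1 to 5 was -0.13, 0.0011, 0.030, 0.071 and 0.030 on the log2 scale, and that over all genes was -0.0067, -0.0038, 0.0098, 0.0098 and 0.0016. Replicate 4 was the highest library for 13 genes and replicate 5 for 12, against 26.8% and 18.4% of all genes, and under scaling to pan-neuronal markers these counts were 5 and 11. By role, the number highest in replicate 4 and in replicate 5 was 3 and 1 of the 4 SNARE core genes, 2 and 0 of the 2 SNARE recycling genes, 4 and 0 of the 5 calcium sensing genes, 0 and 4 of the 7 vesicle membrane genes, 3 and 2 of the 6 vesicle surface genes, 0 and 2 of the 4 active zone genes, and 1 and 3 of the 4 endocytosis genes.

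Summed pan-neuronal markers moved with this pattern, but not every neuronal marker did. The pan-neuronal marker sum was 5096, 5564, 5758, 5962 and 5734 CPM, lowest in replicate 1 as well, and the astrocyte sum was highest there with 1143 CPM against 905 to 1045 CPM. Of the pan-neuronal markers, Nefm and Nefh were lowest in replicate 5, Elavl3 in replicate 4 and the others in replicate 1. The excitatory sum, mostly Camk2a, was lowest in replicate 3, at 3517 CPM, with 3851 CPM in replicate 1. Its other members were lowest in replicate 1 except Neurod2. The inhibitory sum was lowest in replicate 1, at 879 CPM. When the libraries were scaled to the pan-neuronal markers, the median deviation was 0.038 in replicate 1 and -0.040 in replicate 4, and replicate 1 was lowest for 2 of 32 genes and replicate 4 for 12. Setting neuronal genes against other neuronal genes takes out a shift that they share, so these counts do not bear on its cause, and the part of neuronal content in the pattern was not tested. With total reads as the library size it was lowest for 20 genes. Syt2, Vamp1 and Cplx1 kept replicate 4 as the highest and replicate 5 as the lowest library under each of these scalings, with ranges of 2.73, 2.00 and 1.35-fold under the pan-neuronal one. The range of Snap25 was 1.21-fold there.

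Related genes that encode forms of the same protein were compared as ratios of RPKM within each library, for 9 pairs. Syt1 exceeded Syt2 by 33.1 ± 13.2 times, with ratios of 31.8, 34.5, 24.1, 20.7 and 54.6 in replicates 1 to 5. Vamp2 exceeded Vamp1 by 33.8 ± 10.4 times, with 34.2, 36.2, 27.2, 22.0 and 49.5. Both ratios were lowest in replicate 4 and highest in replicate 5, which follows from the levels of Syt2 and Vamp1. The glutamate transporter gene Slc17a7 exceeded Slc17a6 by 283 ± 61.7 times, with the lowest ratio at 230.04 and the highest at 383.

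The other pairs were closer to each other in level and steadier between libraries. Rab3a exceeded Rab3c by 6.57 ± 0.724 times, Bsn exceeded Pclo by 3.21 ± 0.225 times, Syn1 exceeded Syn2 by 2.98 ± 0.255 times, Syngr1 exceeded Syngr3 by 2.13 ± 0.140 times and Sv2a exceeded Sv2b by 1.6 ± 0.127 times. The first gene of each of these 8 pairs was higher in 5 of 5 libraries. The complexins did not separate: the ratio of Cplx2 to Cplx1 was 1.00 ± 0.0743 and was above 1 in 2 of 5 libraries. These ratios depend on the exon length. With the longest coding transcript in place of all exons, a choice added after the data were seen, the ratio of Vamp2 to Vamp1 was 17.3, that of Syt1 to Syt2 51.6 and that of Syn1 to Syn2 1.65. With no division by length, Sv2a was below Sv2b, at a ratio of 0.884, and the ratio of Rab3a to Rab3c was 1.21, that of Syn1 to Syn2 1.40, that of Cplx2 to Cplx1 2.26 and that of Syngr1 to Syngr3 4.95. Vamp1 has 10167 bases of annotated exon but a longest coding transcript of 3011 bases, so its RPKM is lower than it would be on that transcript alone.

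**Figure D4:**
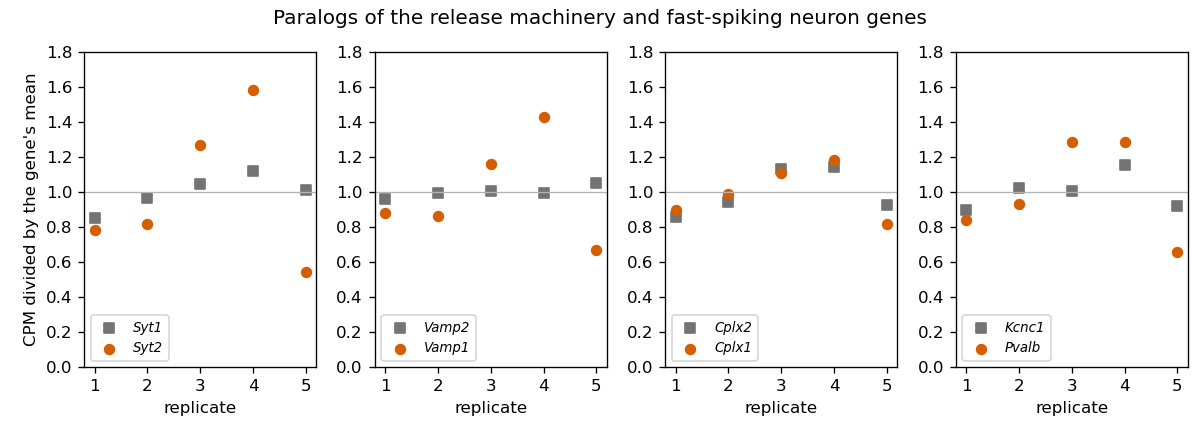
CPM of each gene divided by its own mean over the 5 libraries, by replicate. The panels show Syt1 with Syt2, Vamp2 with Vamp1, Cplx2 with Cplx1, and Kcnc1 with Pvalb. Syt2, Vamp1 and Pvalb are highest in replicate 4 and lowest in replicate 5.

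Another 74 genes of the pathway were described beside the 32, from a list that was not picked for how they moved in these libraries but was written with earlier results known. All 74 were at 1 CPM or more, and 71 were called by the same test. Of all genes tested 74.4% were called, and of those of at least 100 CPM 98.1%. The median CV of the 74 was 7.80%, against 8.25% over all genes of at least 1 CPM. As for the 32 genes, replicate 1 was most often the lowest library, for 31 of 74, against 25.2% of all genes of at least 1 CPM. Among the most abundant per kilobase was Syt11, a synaptotagmin that does not bind calcium, at 178 ± 8.55 RPKM, close to Syt1 at 183 ± 18.2 RPKM and within its spread. Like the ratios above, this comparison depends on the exon length. Syt1 has 8338 bases of annotated exon but a longest coding transcript of 4820 bases. Ap2m1, a subunit of the clathrin adaptor AP-2, was at 115 ± 5.52 RPKM, and Scamp5, a secretory carrier membrane protein, at 112 ± 3.01 RPKM.

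The widest spreads among these 74 were those of Syt17, Sv2c and Cplx3. Sv2c, the third SV2 glycoprotein, was at 22.5, 24.2, 30.6, 41.6 and 20.3 CPM (CV 30.8%), the same order of libraries as Syt2, and was the 1 gene of the 74 with it. Cplx3, a complexin found in few cortical neurons, was at 31.8, 34.5, 38.9, 22.7 and 17.8 CPM (CV 29.6%), highest in replicate 3. Syt17 was at 45.1, 32, 19.3, 43.3 and 52.0 CPM (CV 33.4%), lowest in replicate 3. Cplx3 and Syt17 thus ran in opposite directions over replicate 3, and neither followed Cplx1 or Syt1. The most even were Erc1, an active zone scaffold, at 39.3, 39.6, 40.1, 39.4 and 41.5 CPM with no spread beyond counting error (adjusted p = 0.514 by the chi-square test), Scamp5 (CV 2.57%) and Tprgl, a vesicle protein also called mover (CV 2.70%). The other 2 genes that were not called were Syt9 (adjusted p = 0.057) and Sncg (adjusted p = 0.065).

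Reads of an overlapping gene could be counted with 9 of the 32 genes, since the strand setting is not given in the sources used here. The most abundant such neighbours were Araf, opposite Syn1, at 131 CPM, Colgalt1, opposite Unc13a, at 44.0 CPM, Timp4, opposite Syn2, at 24.3 CPM, and Mpv17l2, opposite Rab3a, at 13.2 CPM. The neighbours of Syp, Sv2b, Synj1, Pclo and Bsn were at 1.81 CPM or less. Syt2, Vamp1, Cplx1 and Snap25 had no such neighbour.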

How the data were processed

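The authors deposited 1 table of log2 expression values for 25 samples. The submitters' processing notes list edgeR, featureCounts, Subread 1.6.3, SAMtools 1.9 and STAR 2.6.1d, and name GRCm38 and mm10 as builds; the annotation release and the strand setting were not given in the sources used here. The form of the deposited log2 values was inferred from the values: log2 of (reads plus 0.5) scaled to CPM by an effective library size of 0.998 to 1.04 times the summed reads. All values came out as whole reads within 1e-06. A total of 20 columns with no sample matched by name was not used.

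Reads, CPM and RPKM were computed from these values in Python 3.11.15 with pandas 2.3.3, numpy 2.4.6 and scipy 1.17.1 and plotted with matplotlib 3.10.9, with GENCODE M21 union exon lengths and coordinates on GRCm38. Symbols were matched for 23856 of 23990 identifiers. A count of 3 reads corresponds to 0.0673 to 0.0870 CPM; intervals and tests on reads cover counting error only. For each gene, a chi-square test asked whether libraries differed beyond counting error (p-values adjusted by Benjamini-Hochberg over all genes averaging 5 reads or more), which was tested on simulated data. The genes, the 14 marker lists and the list of 74 genes were chosen with earlier results of these data known. Named were all 32 genes and, of the 74, the 5 highest in RPKM and the 3 highest and 3 lowest in CV, of which some are not reported here; other genes named were marker genes, genes overlapping the 32, the remaining genes not called and genes with the library order of Syt2. Alternatives were other library sizes, filters, lengths, 2 reads added before the log, and leaving out each replicate.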

Additional observations from a re-analysis of the deposited data

Results flagged for a closer look

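Of 42 values tested over the 5 libraries for 1 library far from the others (the CPM of the 32 genes, and summary values), 2 stood apart, and chance gives about 1 in 20. Syn2, which encodes synapsin II, was at 704 CPM in replicate 5, while the other 4 libraries lay between 520.3 and 567 CPM. Its gap to the nearest library was 0.747 of the whole range, above the critical value of 0.71. Pclo, which encodes the active zone scaffold piccolo, was at 244 CPM in replicate 1, while the other 4 lay between 324 and 343 CPM, a gap of 0.813 of the range. The causes were not tested.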

How the results depend on the processing

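No paired analysis was possible because columns of the table were matched to a single group. All 32 genes were called under each alternative except without replicate 5, where 31 were called and Slc17a6 was not. The median CV was 5.00% without replicate 1 and 7.47% without replicate 2, and 5.82% and 5.97% with total reads and pan-neuronal scaling. It differed from the reported CV by over 1.5 times in 12 of 32 genes without replicate 1, in 4 without replicate 5, in 2 without replicate 3 and in 1 without replicate 4. Total reads moved replicate 1 by 0.06 on the log2 scale. Under pan-neuronal scaling the median deviation was 0.038 in replicate 1 and -0.040 in replicate 4. Without division by length the ratios were 12.7 for Vamp2 to Vamp1, 1.40 for Syn1 to Syn2, 0.884 for Sv2a to Sv2b, 2.26 for Cplx2 to Cplx1, 1.21 for Rab3a to Rab3c, 4.95 for Syngr1 to Syngr3 and 2.28 for Bsn to Pclo. With the longest coding transcript they were 51.6 for Syt1 to Syt2, 17.3 for Vamp2 to Vamp1, 1.65 for Syn1 to Syn2, 1.13 for Sv2a to Sv2b, 2.33 for Syngr1 to Syngr3, 400.6 for Slc17a7 to Slc17a6 and 2.88 for Bsn to Pclo. Of 224 recomputed mean levels in CPM, most left out 1 replicate, which cannot move a mean over 5 libraries by its SD, whatever the values. With total reads or a median of ratios between libraries as the library size, none moved by more than its SD. TPM was 3.66 times RPKM in the median. The 5 libraries allow no correlation or test between groups.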
